A study of Homo sapiens with 4 samples.

Results

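CHAMP1 and the heterochromatin proteins around it were followed as mRNA in human hepatocellular carcinoma cells in which CCDC137, an RNA-binding protein of the nucleus, had been raised or lowered. The set held 9 genes (CHAMP1, POGZ, MAD2L2, CBX1, CBX3, CBX5, TRIM28, SETDB1 and ANKRD11), found by their symbols among the 60612 genes of the tables. CHAMP1 and ANKRD11 were chosen by their opposite differences on overexpression and knockdown of CCDC137 in these same libraries. Their values in both treatments, between the lines and in the search for similar profiles are therefore a description and carry no support. The other 7 genes were taken as binding partners of CHAMP1 or as corepressors of the same pathway. The question asked of them was whether the partners of CHAMP1 differed along with it. These 7 genes were also chosen with earlier results of these data known, so their values answer it as a description only.

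Poly(A) RNA was sequenced from 4 libraries, 1 per group. Huh-7 cells, a hepatocellular carcinoma line, either overexpressed CCDC137 from a lentiviral vector or carried the empty vector. PLC/PRF/5 cells, another hepatocellular carcinoma line, either had CCDC137 knocked down or carried a control vector. Per the study's methods, the knockdown was done with a guide RNA and an inactive Cas9 fused to a KRAB repressor domain, lentivirus-infected cells were selected with an antibiotic (both vectors carry puromycin resistance), and Huh-7 and PLC/PRF/5 cells were grown in different media. Values were FPKM (fragments scaled to the length of the transcript and to all mapped fragments of the library), which allow levels to be compared between genes per length. With 1 library per group no spread between replicates was known and no difference could be tested. Differences were expressed as log2((FPKM + 1)/(FPKM + 1)), and a gene was counted as higher or lower when it lay past 2-fold on that scale with at least 1 FPKM in either library. No read numbers were used, and the depth behind each value is unknown.

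CHAMP1 is a zinc finger protein of the spindle and kinetochore that is needed for chromosome alignment. It binds POGZ, a zinc finger protein that removes HP1 from mitotic chromosome arms, and MAD2L2 (REV7), an adaptor of translesion DNA polymerase zeta and of shieldin. The HP1 proteins, encoded by CBX5 (HP1 alpha), CBX1 (HP1 beta) and CBX3 (HP1 gamma), read methylated histone H3 lysine 9 and hold heterochromatin compact. TRIM28 is the corepressor that binds KRAB domains, and it brings in SETDB1, the enzyme that places this methyl mark. ANKRD11 is a large chromatin regulator that binds p160 coactivators and histone deacetylases. Germline mutation of CHAMP1, POGZ or ANKRD11 causes a neurodevelopmental disorder in humans. The KRAB domain of the knockdown construct works through TRIM28, SETDB1 and HP1, so that the PLC/PRF/5 knockdown library carried a fusion protein that uses members of this set.

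The knockdown guides are shown because they aim that repressor at CCDC137 and could be searched for in the promoters of the 9 genes. The study designed 2 guides, and which of them the sequenced cells carried is not given in the sources used here. Each guide matched GRCh37 exactly at the start of CCDC137 on the plus strand, in exon 1. The site of the first is at chr17:79633794-79633816, 27 bases after the start of the gene, and the site of the second is at chr17:79633810-79633832, 43 bases after it and inside the coding sequence. The target sites are written 5′ to 3′ with the adjoining NGG in capitals.
CCDC137 sgRNA-1: gagatggcgggagctggtcgCGG
CCDC137 sgRNA-2: gtcgcggagcagcggtgtccAGG

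RefSeq promoters (250 bases before to 50 after a transcription start, GRCh38.p14) were listed for 8 of the 9 genes. In the promoter of CHAMP1 the closest site beside an NGG differed from the guides at 9 and 10 of 20 positions, and in the promoter of ANKRD11 at 10 and 9. In the CBX1 promoter these numbers were 8 and 9. The fewest differences in any listed promoter of the set were 7 from the first guide (MAD2L2 and POGZ) and 6 from the second (MAD2L2). A site with at most 7 differences from the first guide was present in 7.31% of all 35116 promoters and one with at most 9 in 47.1%, and a site with at most 6 differences from the second guide in 1.02%. The CCDC137 promoter itself held the first guide without a difference, but its window ended before the site of the second, where the closest match had 9 differences. The search for the second guide therefore covers the listed windows only. Over all 35116 promoters, 2 held the first guide without a difference and 1 held the second. The genes of the entries other than that of CCDC137 are not given here. Sites elsewhere in the genome were not searched.

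The promoters of the 3 genes that lay past 2-fold in a treatment comparison are shown next, since these are the members whose mRNA differed. Each is the 250 bases before the RefSeq start, read 5′ to 3′ along the gene. The CHAMP1 sequence is chr13:114314253-114314502 (plus strand), that of ANKRD11 is chr16:89490562-89490811 (minus strand), and that of CBX1 is chr17:48101187-48101436 (minus strand), all in GRCh38.p14. Capitals mark the NF-Y motif CCAAT, the E-box CACGTG and the ETS-type motif ACTTCCGG on either strand, and none of the marked matches overlaps another.
CHAMP1: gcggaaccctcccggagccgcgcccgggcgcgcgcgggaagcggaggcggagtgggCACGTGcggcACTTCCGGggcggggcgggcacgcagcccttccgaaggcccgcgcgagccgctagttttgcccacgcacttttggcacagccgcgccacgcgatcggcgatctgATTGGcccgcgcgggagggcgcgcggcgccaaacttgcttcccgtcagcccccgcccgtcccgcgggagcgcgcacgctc
ANKRD11: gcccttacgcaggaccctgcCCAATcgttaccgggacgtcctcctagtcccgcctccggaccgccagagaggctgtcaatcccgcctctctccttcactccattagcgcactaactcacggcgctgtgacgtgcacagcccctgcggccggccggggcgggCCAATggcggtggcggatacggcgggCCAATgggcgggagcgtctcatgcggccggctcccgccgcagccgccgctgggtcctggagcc
CBX1: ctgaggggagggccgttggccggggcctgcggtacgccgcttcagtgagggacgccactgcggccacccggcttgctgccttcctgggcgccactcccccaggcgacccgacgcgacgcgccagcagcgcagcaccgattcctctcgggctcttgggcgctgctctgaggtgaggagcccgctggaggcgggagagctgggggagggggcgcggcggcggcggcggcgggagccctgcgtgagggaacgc

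All 3 were rich in G and C, with 76.8% in CHAMP1, 70.8% in ANKRD11 and 76% in CBX1, beside a median of 58% over all 35116 promoters. The CHAMP1 promoter held 44 CpG dinucleotides, that of ANKRD11 28 and that of CBX1 30, beside a median of 11. CCAAT occurred once in CHAMP1, at 3 places in ANKRD11 and nowhere in CBX1, and in 32.0% of all promoters. The E-box and the ETS-type motif each occurred once in CHAMP1 and were not in the other sequences. They were present in 6.34% and 3.42% of all promoters. These matches describe the letters only.

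In all 4 libraries CCDC137 followed its label. It was at 229.0 FPKM in overexpressing Huh-7 cells, against 11.9 FPKM with the empty vector, and at 0.771 FPKM in knockdown PLC/PRF/5 cells, against 20.5 FPKM in control cells. The 4 libraries had similar totals of 276444 to 289684 FPKM and 11727 to 11903 genes of at least 1 FPKM, and mitochondrial genes held 30.1% to 31.5% of the totals. Of 7 hepatocyte markers, all were at or above 1 FPKM in both Huh-7 libraries and 6 in both PLC/PRF/5 libraries, where albumin (ALB) was at 1.94 FPKM in knockdown cells and 2.15 FPKM in control cells. The 5 fibroblast markers summed to 0.778 to 1.42 FPKM in each library. Of 6 blood and endothelial markers, PTPRC and HBB were listed at 0 in every library, while 3 were at or above 1 FPKM in both Huh-7 libraries (CD68, CD14 and PECAM1) and 1 in both PLC/PRF/5 libraries (CD68). CD68 was at 4.60 FPKM in overexpressing and 8.45 FPKM in empty vector Huh-7 cells, and at 43.8 FPKM in knockdown and 38.2 FPKM in control PLC/PRF/5 cells. CD14 and PECAM1 were instead higher in the Huh-7 libraries, at 4.81 and 2.66 FPKM in overexpressing cells and 4.59 and 2.28 FPKM in empty vector cells.

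CHAMP1 (ENSG00000198824, chr13:115079957-115103101 in GRCh37, plus strand) spanned the widest range of the set on the log2 scale. It was at 5.89 FPKM in overexpressing Huh-7 cells, against 0.406 FPKM in empty vector cells, a log2 difference of 2.29 and an FPKM ratio of 14.5. It was at 1.20 FPKM in knockdown PLC/PRF/5 cells, against 10.02 FPKM in control cells, a log2 difference of −2.32 and an FPKM ratio of 0.12. The overexpressing Huh-7 library and the PLC/PRF/5 control library were thus the high ones, and the empty vector library lay below 1 FPKM. Among genes of at least 1 FPKM in the library, CHAMP1 stood at percentile 51.3 in overexpressing cells, 4.29 in knockdown cells and 67.2 in control cells. In empty vector cells it lay below that minimum, so it has no place among them. By size of the difference it was the 11th highest of 12255 expressed genes on overexpression and the 15th lowest of 12300 on knockdown. In these bulk libraries, fewer cells with the transcript and less of it per cell cannot be told apart.

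ANKRD11 (ENSG00000167522, chr16:89334038-89556969 in GRCh37, minus strand) had the same order of libraries within each line, at a smaller size. It was at 14.2 FPKM in overexpressing cells, against 3.88 FPKM with the empty vector, a log2 difference of 1.64. In knockdown cells it was at 3.68 FPKM, against 10.7 FPKM in control cells, a log2 difference of −1.32. Unlike CHAMP1, it remained above 3 FPKM in its low libraries, where it stood at percentile 35.2 of expressed genes in knockdown cells and 37.1 in empty vector cells. In all, 14 of 10698 genes expressed in both comparisons (0.131%) lay past 2-fold in both treatments, above 0 on overexpression and below 0 on knockdown, and CHAMP1, ANKRD11 and CCDC137 itself were among them. CHAMP1 and ANKRD11 had been picked for this, so the count is not evidence about the set.

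**Figure D1:**
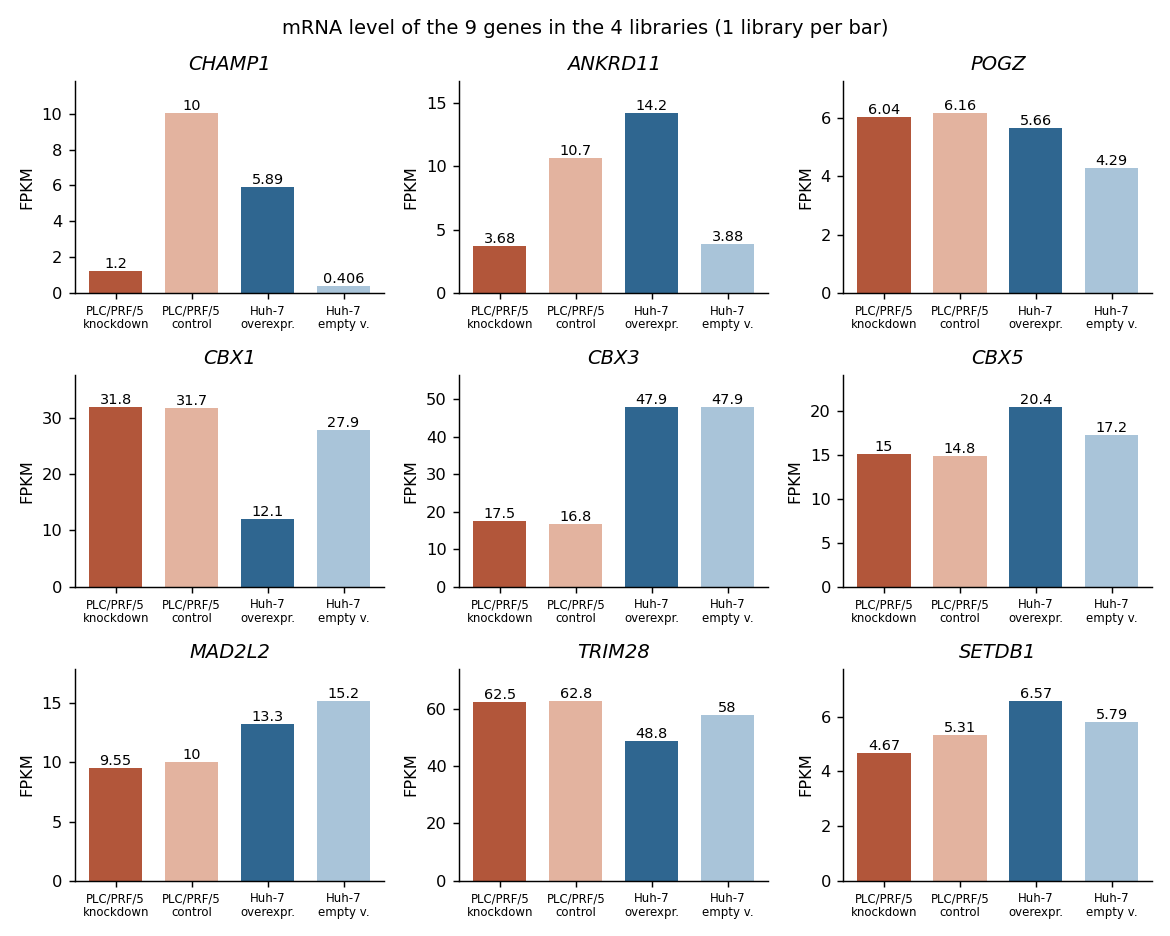
FPKM of the 9 genes in the 4 libraries, with a separate linear axis from 0 for each gene and each bar a single library without replicates. CHAMP1 and ANKRD11 were low in knockdown PLC/PRF/5 and empty vector Huh-7 cells, CBX1 was low in overexpressing Huh-7 cells, and CBX3 was high in both Huh-7 libraries.

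On overexpression, 2 of the 9 genes were higher past 2-fold (CHAMP1 and ANKRD11) and 1 was lower (CBX1). Of all 12255 expressed genes, 1.07% were higher and 1.09% were lower. The median log2 difference was 0.16 over the 9 genes and 0.01 over all expressed genes. Without CHAMP1 and ANKRD11, none of the 7 remaining genes was higher past 2-fold, 1 was lower, and their median was 0.00, the value of CBX3. On knockdown, CHAMP1 and ANKRD11 were lower past 2-fold and none was higher, where 1.1% of 12300 expressed genes were lower and 1.2% were higher. The other 7 genes lay between −0.15 and 0.05 on knockdown, with a median of −0.01, equal to the median of −0.01 over all expressed genes.

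**Figure D2:**
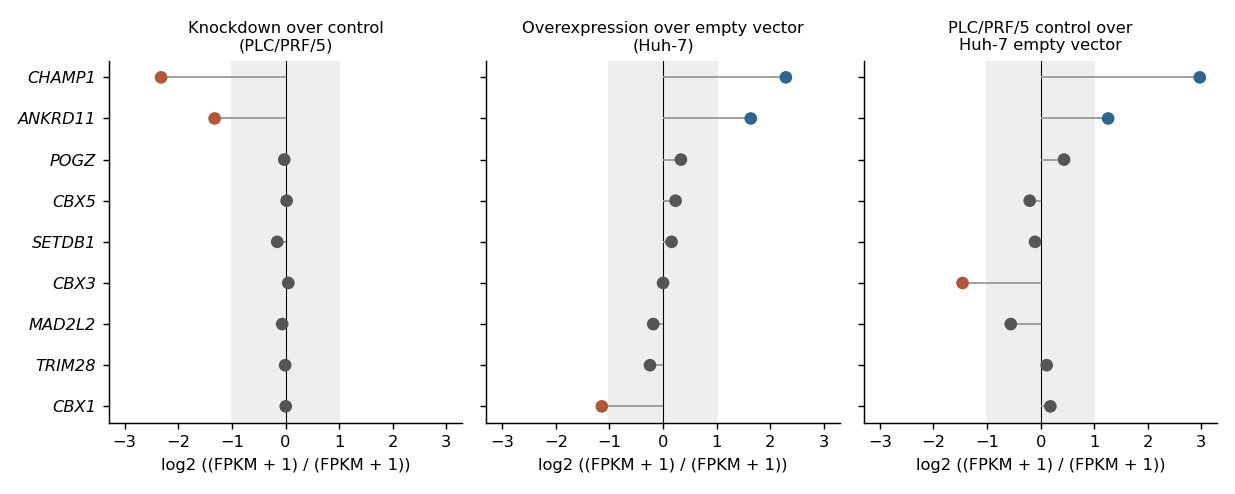
Log2 difference of each gene on knockdown, on overexpression and between the PLC/PRF/5 control and Huh-7 empty vector libraries, with the grey band marking less than 2-fold. On knockdown the 7 genes other than CHAMP1 and ANKRD11 lay within −0.15 to 0.05, and on overexpression CBX1 lay outside the band at −1.14.

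POGZ, the direct partner of CHAMP1, lay between 4.29 and 6.16 FPKM in the 4 libraries. It was at 5.66 FPKM in overexpressing Huh-7 cells, against 4.29 FPKM with the empty vector, a log2 difference of 0.33, and at 6.04 FPKM in knockdown PLC/PRF/5 cells, against 6.16 FPKM in control cells, a log2 difference of −0.02. MAD2L2 was at 13.3 FPKM in overexpressing cells, against 15.2 FPKM with the empty vector, and at 9.55 FPKM in knockdown cells, against 10.01 FPKM in control cells, with log2 differences of −0.18 and −0.06. Neither partner came near 2-fold in either treatment. The FPKM ratio of POGZ to CHAMP1 was 0.961 in overexpressing and 10.6 in empty vector Huh-7 cells, and 5.02 in knockdown and 0.614 in control PLC/PRF/5 cells. That of MAD2L2 to CHAMP1 was 2.25 in overexpressing and 37.4 in empty vector cells, and 7.94 in knockdown and 0.999 in control cells. As CHAMP1 is the denominator and was chosen for its differences, these ratios mirror its level.

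Among the HP1 genes, CBX1 differed on overexpression and not in the knockdown pair. CBX1, at chr17:46147414-46178840 in GRCh37, was at 12.1 FPKM in overexpressing Huh-7 cells, against 27.9 FPKM with the empty vector, a log2 difference of −1.14 and an FPKM ratio of 0.433. In knockdown PLC/PRF/5 cells it was at 31.8 FPKM, against 31.7 FPKM in control cells, a log2 difference of 0.00. The overexpressing library was thus the only one of the 4 with a low value, the others lying between 27.9 and 31.8 FPKM. The difference ranked 98th among the genes lower on overexpression. Its flanking genes, chosen after their values were seen, were NFE2L1, at 24.7 FPKM in overexpressing and 25.3 FPKM in empty vector cells, and SNX11, at 3.90 and 4.73 FPKM in the same order. None of the CBX1 pseudogenes listed reached 1 FPKM in any library.

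CBX5 was at 20.4 FPKM in overexpressing Huh-7 cells, against 17.2 FPKM with the empty vector (log2 difference 0.23), and at 15.0 FPKM in knockdown PLC/PRF/5 cells, against 14.8 FPKM in control cells (0.02). CBX3 was at 47.9 FPKM in both Huh-7 libraries, a log2 difference of 0.00 for overexpression over empty vector, and at 17.5 FPKM in knockdown PLC/PRF/5 cells, against 16.8 FPKM in control cells (0.05). The HP1 mRNAs together came to 80.4 FPKM in overexpressing and 93.0 FPKM in empty vector Huh-7 cells, and to 64.3 FPKM in knockdown and 63.4 FPKM in control PLC/PRF/5 cells. CBX1 made up 15.0% of this sum in overexpressing cells, against 30.0% in empty vector cells, CBX3 59.6% against 51.6%, and CBX5 25.4% against 18.5%. In the PLC/PRF/5 libraries the makeup hardly differed, with CBX1 at 49.5% in knockdown and 50.1% in control cells. CBX5, the least abundant HP1 mRNA in the other libraries, exceeded CBX1 in overexpressing Huh-7 cells.

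**Figure D3:**
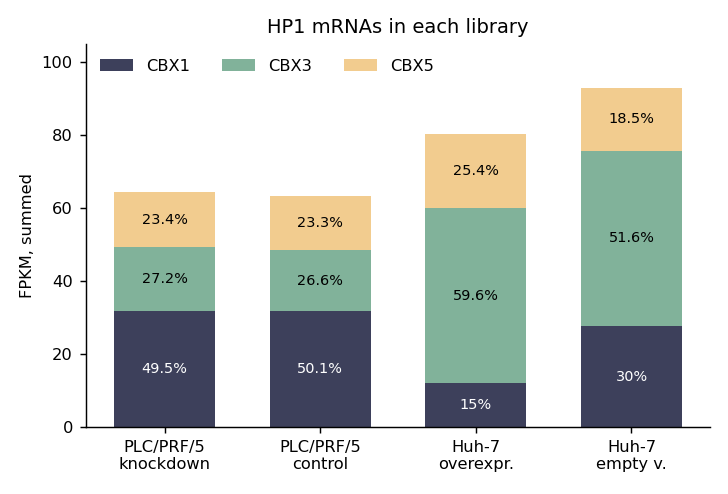
Summed FPKM of the HP1 genes CBX1, CBX3 and CBX5 in each library, with each segment labelled by its percentage of the sum (no replicates). CBX3 was the largest segment in both Huh-7 libraries and CBX1 in both PLC/PRF/5 libraries, and CBX1 made up 15.0% in overexpressing Huh-7 cells, against 30.0% with the empty vector.

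The corepressors TRIM28 and SETDB1 differed little with either treatment. TRIM28, the most abundant gene of the set in every library, was at 48.8 FPKM in overexpressing Huh-7 cells, against 58.0 FPKM with the empty vector, a log2 difference of −0.24, and at 62.5 FPKM in knockdown PLC/PRF/5 cells, against 62.8 FPKM in control cells, a log2 difference of −0.01. SETDB1 was at 6.57 FPKM in overexpressing cells, against 5.79 FPKM with the empty vector, and at 4.67 FPKM in knockdown cells, against 5.31 FPKM in control cells, with log2 differences of 0.16 and −0.15. The cells that carried the KRAB fusion thus had nearly the TRIM28 and CBX5 levels of their control cells, while SETDB1 differed by −0.15. Whether these control cells carried the same fusion is not given in the labels.

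Between the lines, CHAMP1 was 1 of 3 genes of the set past 2-fold. CHAMP1 and ANKRD11 were chosen by differences that rest on these same libraries, so their values here are also a description without support. CHAMP1 was at 10.02 FPKM in PLC/PRF/5 control cells, against 0.406 FPKM in Huh-7 empty vector cells, a log2 difference of 2.97, and ANKRD11 at 10.7 FPKM, against 3.88 FPKM, a difference of 1.26. CBX3 was the lower one, at 16.8 FPKM in PLC/PRF/5 control cells, against 47.9 FPKM in Huh-7 empty vector cells, a difference of −1.46. MAD2L2 followed at −0.56 and POGZ at 0.44, and the 4 other genes lay within −0.20 to 0.18. Of 13304 expressed genes, 14.6% were higher and 13.6% were lower in PLC/PRF/5 control cells, so differences past 2-fold were common between the lines. By size of the difference, CHAMP1 was the 174th highest, ANKRD11 the 1327th highest and CBX3 the 865th lowest. The line, the vector, the medium and the deposited table go together here and cannot be told apart, as the FPKM of the pairs come from separate tables.

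Ordered by level, CHAMP1 ran from PLC/PRF/5 control (10.02 FPKM) over overexpressing Huh-7 (5.89 FPKM) and knockdown PLC/PRF/5 (1.20 FPKM) to empty vector Huh-7 (0.406 FPKM), while ANKRD11 was highest in overexpressing Huh-7 (14.2 FPKM) and about equal in its low libraries (3.68 and 3.88 FPKM in knockdown PLC/PRF/5 and empty vector Huh-7 cells). No spread is known by which neighbours in either order could be separated.

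Among 13848 genes of at least 1 FPKM in some library, the 5 whose profile over the 4 libraries was nearest to CHAMP1 were LEPROT, AC011448, GABARAPL1, SNORD24 and NPIPP1. Likeness was the Euclidean distance between log2(FPKM + 1) values centred on each gene's mean, and it ran from 0.64 for LEPROT to 1.06 for NPIPP1. LEPROT, which acts in the trafficking of the leptin receptor, was at 15.1 FPKM in overexpressing and 2.43 FPKM in empty vector Huh-7 cells, and at 2.86 FPKM in knockdown and 14.7 FPKM in control PLC/PRF/5 cells. GABARAPL1, an autophagy protein, was at 15.1 FPKM in overexpressing and 3.35 FPKM in empty vector cells, and at 4.19 FPKM in knockdown and 13.2 FPKM in control cells. In these poly(A) libraries, what the entry of SNORD24, a small nucleolar RNA, measures is not known. It was at 1.82 FPKM in overexpressing, 0.112 FPKM in empty vector, 0.0423 FPKM in knockdown and 2.20 FPKM in control cells. NPIPP1, a pseudogene, was at 2.95, 0.266, 0.101 and 2.55 FPKM in the same order, so both lay near the floor. The 5 genes had the CHAMP1 order of high and low libraries within each line, and all 5 were among the 14 genes past 2-fold in opposite directions. ANKRD11 ranked 8th by this distance (1.22), and POGZ lay at 2.17, MAD2L2 at 2.64 and CBX1 at 2.94. CHAMP1 and ANKRD11 had been chosen for the same pattern in these libraries. Their closeness and the overlap with the 14 genes follow from that choice and are not evidence of a link. Such a ranking rests on 4 libraries and on the measure, since by Pearson correlation none of these 5 genes was among the nearest 5, and with a minimum of 5 FPKM 3 of them were.

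**Figure D4:**
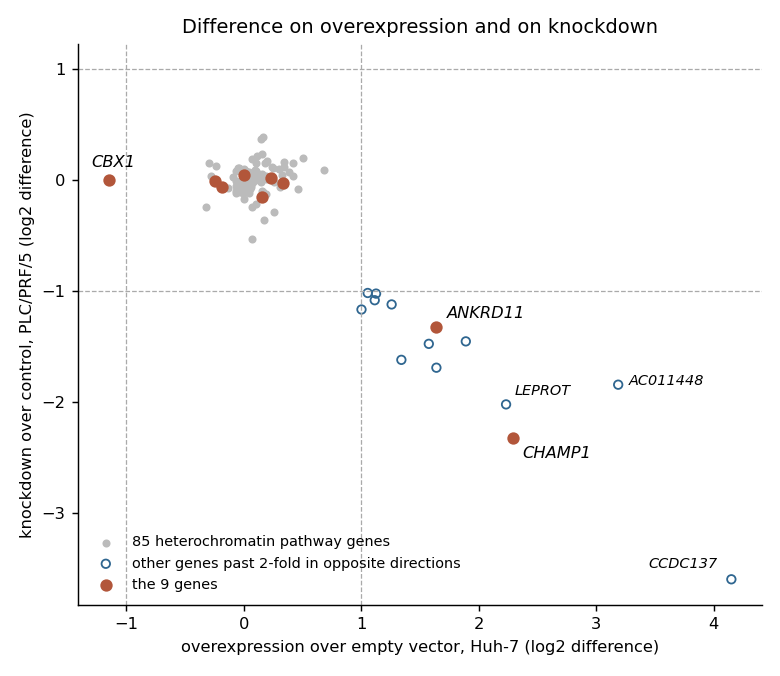
Log2 difference on overexpression (horizontal) against log2 difference on knockdown (vertical), with dashed lines at 2-fold. Shown are the 9 genes, the 85 list genes and the other genes past 2-fold in opposite directions. The list genes, named heterochromatin pathway genes in the legend, also include partners and relatives of the members outside heterochromatin. CHAMP1 and ANKRD11, chosen for this pattern, lay at the lower right beside LEPROT and AC011448, while CBX1 lay at the left with a knockdown difference of 0.00 and the list genes lay around 0 on both axes.

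The genome around the members was read for overlaps, since the use of strand in the counting is not given in the sources used here. CHAMP1 overlaps only LINC01054, on the opposite strand and without a shared exon, which was listed at 0 in every library. Its nearest protein-coding gene, UPF3A, a factor of nonsense-mediated decay 8665 bases away on the same strand, was at 7.16 FPKM in overexpressing and 3.70 FPKM in empty vector Huh-7 cells, and at 8.96 FPKM in knockdown and 8.33 FPKM in control PLC/PRF/5 cells. UPF3A was therefore also higher with overexpression, by 0.80 on the log2 scale and short of 2-fold, but was not lower with knockdown (0.09). No protein-coding gene is annotated beyond CHAMP1 at higher coordinates.

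Beside ANKRD11, SPG7, a mitochondrial protease subunit which starts 158 bases away, was at 1.93 FPKM in overexpressing and 1.64 FPKM in empty vector cells, and at 0.832 FPKM in knockdown and 0.937 FPKM in control cells. ZNF778, a zinc finger gene on the other side, was at 1.95 and 2.19 FPKM in overexpressing and empty vector cells, and at 0.406 FPKM in knockdown cells, against 1.56 FPKM in control cells, a log2 difference of −0.87. The pseudogene ANKRD11P2 was at 1.51 and 1.39 FPKM in overexpressing and empty vector cells and at 1.19 and 2.13 FPKM in knockdown and control cells, which was 10.7% to 35.7% of the ANKRD11 value, so reads that could be split between them make the ANKRD11 level less certain. The overlapping lncRNA genes of ANKRD11 that were listed were at most at 1.11 FPKM in any library.

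CBX3 shares its start region with HNRNPA2B1, an abundant RNA-binding protein gene on the opposite strand with which it has overlapping exons. HNRNPA2B1 was at 134.4 and 123.6 FPKM in overexpressing and empty vector Huh-7 cells and at 84.6 and 76.5 FPKM in knockdown and control PLC/PRF/5 cells, and was thus also lower in PLC/PRF/5 cells, by 0.68 on the log2 scale in the control libraries. The genes that flank CBX3, chosen after their values were seen, were also lower in that comparison. NFE2L3 was at 1.05 FPKM in PLC/PRF/5 control cells, against 10.9 FPKM in Huh-7 empty vector cells, a log2 difference of −2.53. SNX10 was at 2.26 FPKM, against 6.01 FPKM, a difference of −1.10. Why neighbouring genes were lower together was not tested. The pseudogene CBX3P9 stood at 25.6% to 30.3% of CBX3 in each library. HNRNPA1, which starts 60 bases from CBX5, was at 131.9 and 129.4 FPKM in overexpressing and empty vector cells and at 109.3 and 97.8 FPKM in knockdown and control cells. MAD2L2 overlaps exons of FBXO6 and SETDB1 overlaps exons of CERS2, each on the opposite strand. CERS2, a ceramide synthase at 50.2 to 77.3 FPKM, was more abundant than SETDB1 in every library. Without strand, reads from such pairs cannot be told apart.

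Around the set, 85 genes of 10 lists were read for the same differences: enzymes that place or remove H3K9 methylation, the HUSH and NuRD complexes, further partners of POGZ, CHAMP1, HP1, MAD2L2 or ANKRD11, relatives of TRIM28 and HP1, and the DNA methylation machinery. The lists, too, were chosen with earlier results of these data known, so their values are a description. None of 82 expressed genes was past 2-fold on overexpression, and none of 81 on knockdown, beside the 1.07% to 1.2% of all expressed genes on either side. At such shares few genes of lists this size would be past 2-fold, so these counts do not set the lists apart. The median log2 difference of these lists was 0.07 on overexpression and 0.02 on knockdown, beside 0.01 and −0.01 over all expressed genes. The largest differences on overexpression were those of CENPE, a kinetochore motor protein (4.87 FPKM, against 2.64 FPKM with the empty vector, log2 difference 0.69), of the shieldin subunit SHLD2 (0.50) and of WIZ, a cofactor of the H3K9 methyltransferases EHMT1 and EHMT2 (0.47). On knockdown they were those of POLD3, a subunit that DNA polymerase zeta shares with polymerase delta (3.86 FPKM, against 6.003 FPKM in control cells, −0.53), and of the DNA methyltransferases DNMT3B (0.39) and DNMT3A (0.37). In the other treatment, CENPE was at 0.09, SHLD2 at 0.20 and WIZ at −0.08 on knockdown. POLD3 was at 0.07, DNMT3B at 0.17 and DNMT3A at 0.15 on overexpression.

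Between the lines, 13 of 83 expressed list genes were past 2-fold, 5 higher and 8 lower in PLC/PRF/5 control cells. Both shares lay below those of all expressed genes, of which 14.6% were higher and 13.6% were lower, so these counts do not set the lists apart. The higher ones included the NuRD subunit RBBP7 and the HUSH subunits MPHOSPH8 and TASOR, and TASOR was at 8.10 FPKM, against 3.24 FPKM in Huh-7 empty vector cells. The 8 that were lower were MORC2, ADNP, CHAF1A, MAD1L1, HDAC1, GATAD2B, NCOA2 and UHRF1. Among them ADNP, an HP1-binding homeodomain protein, was at 2.97 FPKM in PLC/PRF/5 control cells, against 9.45 FPKM in Huh-7 empty vector cells, and HDAC1 at 23.5 FPKM, against 54.0 FPKM. Within the HUSH complex, MORC2 was at 4.87 FPKM, against 11.9 FPKM, while MPHOSPH8 was at 20.9 FPKM, against 7.83 FPKM.

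**Figure D5:**
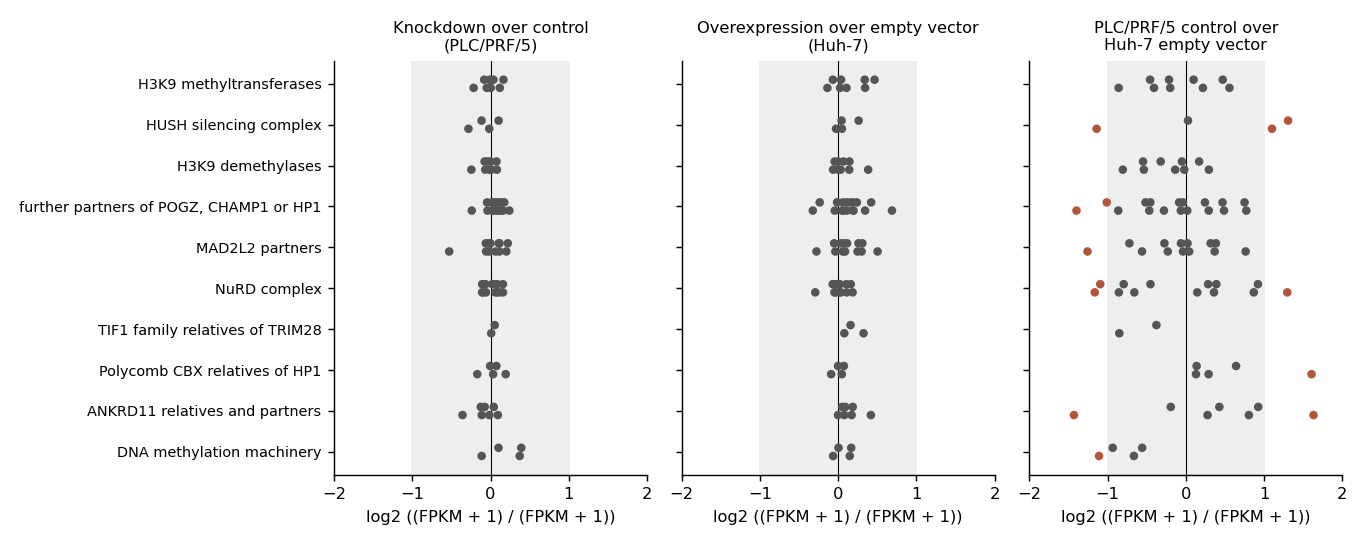
Log2 difference of each expressed gene of the 10 lists on knockdown, on overexpression and between the PLC/PRF/5 control and Huh-7 empty vector libraries, with genes past 2-fold (outside the grey band) in red. No list gene lay outside the band in either treatment, where 1.07% to 1.2% of all expressed genes did so on either side. Between the lines 13 list genes did so, 5 higher and 8 lower in PLC/PRF/5 control cells, beside 14.6% and 13.6% of all expressed genes.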

How the data were processed

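Oligo(dT)-selected mRNA was sequenced in paired ends after dUTP marking of the second strand (study's methods). The tools named in the submitters' processing notes are StringTie 1.3.4d, HISAT2 2.0.4 and cutadapt. For the build, annotation and use of strand, nothing was given in the sources used here. The authors deposited FPKM per gene and library in 2 tables, one for each line, where 0.0001 stood for 0 and was set to 0. The tables also held the authors' fold changes, p-values, q-values and significance marks, which were not used.

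The 9 genes and the lists were chosen with earlier results of these data known. Differences were log2((FPKM + 1)/(FPKM + 1)), computed in Python 3.11.15 with numpy 2.4.6 and pandas 2.3.3, in genes of at least 1 FPKM in either library. With 1 library per group, no test, interval or replicate error could be given. The computation was tested on simulated data. Genes were named if they were members, list genes past 2-fold or with the 3 largest differences in a treatment, the 5 genes nearest to CHAMP1, overlapping or flanking genes, pseudogenes, or CCDC137, and some list genes that meet this rule are not reported here. Positions and overlaps came from GENCODE 44 lifted to GRCh37, and promoter sequences from RefSeq (GRCh38.p14). Guides were compared without gaps with every promoter on both strands. Alternatives tried were pseudocounts of 0.1 and 0.01 FPKM, rescaling to equal sums (TPM), centring on the median, a minimum of 5 FPKM, no minimum, a fold of 1.5 and other measures of likeness.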

Additional observations from a re-analysis of the deposited data

How the results depend on the processing

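Over 189 alternative values of the 9 genes in the 3 comparisons, each gene kept its side of the fold threshold, and each gene past it kept its direction. Changing the minimum or the fold leaves a log2 difference as it was, so only the pseudocounts, rescaling and centring could move these values. Rescaling to TPM or centring on the median turned the sign of 4 values near 0 (CBX3 on overexpression, and CBX1, CBX5 and TRIM28 on knockdown), which then reached at most 0.04 in size. The size of the CHAMP1 difference depended on the pseudocount. With 0.01 FPKM it was 3.83 on overexpression, −3.05 on knockdown and 4.59 between the lines, against 2.29, −2.32 and 2.97 with 1 FPKM. At a fold of 1.5, the count of list genes past the threshold was 1 on overexpression (CENPE) and 31 between the lines, against 0 and 13 at 2-fold. No paired analysis was possible because each group has 1 library. Leaving out a replicate was not possible for the same reason. The number of fragments behind low values, such as CHAMP1 in empty vector cells, is unknown.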
